A study of Mus musculus with 11 samples.

Results

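Pre CFU-E, the middle of 3 sorted stages of red cell development in mouse bone marrow, was compared with the stage before it, Pre MegE, and the stage after it, CFU-E. The comparison used 9 of the 11 arrays of the series, 1 array for each of 3 stages in each of 3 genotypes. Of 10701 genes with enough signal to test, 792 (7.4%) lay above both flanking stages at Pre CFU-E in all 3 genotypes and 443 (4.14%) lay below both. These 1235 genes are described here, with most room for the 30 peaks and 26 dips that also passed a test against both flanks. All mice had the C57Bl/6 background and were studied at steady state. WT mice were Zbtb46+/+, Het mice Zbtb46 gfp/+ and KO mice Zbtb46gfp/gfp, so that they carried 0, 1 and 2 gfp alleles of the zinc finger gene Zbtb46. Lineage-negative marrow cells were sorted by surface proteins. Pre MegE cells had CD117 and CD150 but no CD105. Pre CFU-E cells had the same proteins and a low level of CD105, and CFU-E cells had CD117 and CD105 without CD150. All 3 gates left out cells with CD41 or CD16/32. The other 2 arrays held CD4+ dendritic cells (DC) from the spleen of a WT and of a KO source. Age, sex, the number of mice behind an array and whether the stages of a genotype shared mice were not given in the sources used here; p-values therefore measure only the spread between these arrays, which may be technical in part.

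Red cell precursors leave multipotent progenitors that can still make megakaryocytes, pass through the burst- and colony-forming stages under the control of Gata1, Klf1 and the erythropoietin receptor, and then fill with hemoglobin. Pre CFU-E lies between the bipotent Pre MegE and the erythropoietin-dependent CFU-E. Cells in this interval divide fast and build ribosomes, mitochondria and nucleotides, with Myc as a known driver of such growth. The path is usually described as a gradual loss of progenitor genes and gain of red cell genes, and a gene that peaks or dips at Pre CFU-E departs from both.

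Values are log2 of the deposited intensity, so that a difference of 1 is a 2-fold change, and 1 array stands behind each value. The median intensity of all probe sets was 214.89 to 218.37 on the Pre MegE arrays, 202.93 to 205.34 on the Pre CFU-E arrays and 198.63 to 200.88 on the CFU-E arrays. The median residual SD of a gene was 0.0705. Zbtb46 read 7.52, 7.67 and 7.71 at Pre MegE in WT, Het and KO, 8.14, 8.30 and 7.70 at Pre CFU-E and 8.87, 8.62 and 7.50 at CFU-E. Only in WT and Het did it climb at each stage, and its difference at Pre CFU-E from the mean of the flanks was 0.07 (SE 0.196, limma adjusted p = 0.814). The position of its probes relative to the inserted gfp was not stated, which limits its signal as a check of the labels. Among genes of the sort gate, Slamf1 (CD150) was 11.44 to 11.51 at Pre MegE, 9.87 to 9.93 at Pre CFU-E and 6.47 to 6.98 at CFU-E, in the order of the gate. For Eng, which encodes CD105, neither step was called (adjusted p = 0.227 and 0.287), and it read 11.78, 11.81 and 11.80 at Pre MegE, 11.69, 11.73 and 11.77 at Pre CFU-E and 11.76, 11.78 and 11.84 at CFU-E. Kit, Itga2b and Fcgr2b were steady falls, and Fcgr3 did not pass the filter.

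Most genes with a called step changed in a lasting way, and few had steps called in opposite directions. Each of both steps was called up, down or not at a limma adjusted p under 0.05. Steady rises numbered 1380 (12.9%) and steady falls 1798 (16.8%). Early rises, which were called only between Pre MegE and Pre CFU-E, numbered 2253 (21.1%) and early falls 1170 (10.9%). Late rises numbered 458 (4.28%), late falls 578 (5.4%) and genes with neither step called 2566 (24%). The remaining genes had both steps called in opposite directions. A gene was called a peak or dip when the larger of its p-values against Pre MegE and against CFU-E, adjusted over all 10701 genes, was under 0.05 and the side was the same in 3 of 3 genotypes. There were 30 peaks (0.28%) and 26 dips (0.243%), and 442 genes (4.13%) had both steps called in opposite directions without passing. A step that was not called can still be a small turn, so the 1235 genes beyond both flanks also include members of other classes. Both differences share the Pre CFU-E arrays, so an error common to those arrays enters both.

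**Figure D1:**
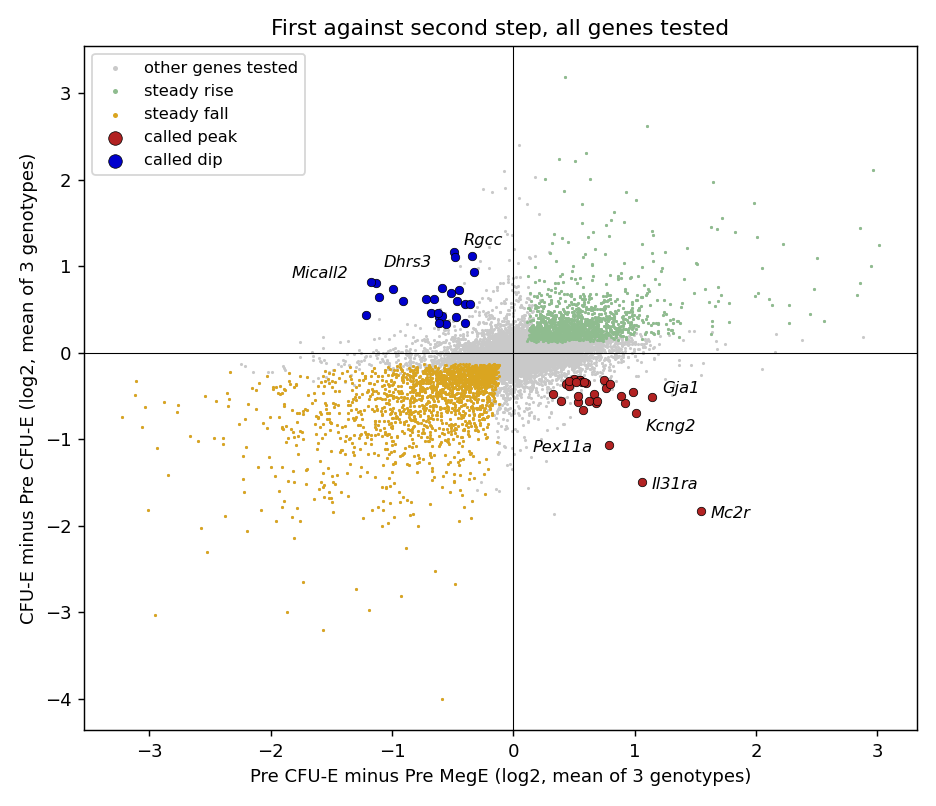
Each point is 1 of 10701 tested genes, with the first step (Pre CFU-E minus Pre MegE) on the horizontal axis and the second step (CFU-E minus Pre CFU-E) on the vertical axis, both in log2 units and averaged over 3 genotypes. The 30 called peaks (red) lie at the lower right and the 26 called dips (blue) at the upper left, nearer to the centre than the largest steady rises (green) and falls (ochre).

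Few turns reached the size of the largest steady changes. The height of a peak or dip is the smaller of its differences from both flanks. Among the 792 genes above both flanks the median height was 0.14, and 14 reached 0.5 and 2 reached 1. Among the 443 genes below both flanks the median was -0.12, and 11 reached 0.5 in size and 0 reached 1. By contrast, both steps were at least 1 in 24 steady rises and 107 steady falls. The median of the smaller step was 0.265 in steady rises and 0.345 in steady falls, which needed both steps called. The median height was larger in size for the called peaks (0.434) and called dips (-0.464), which were also chosen by a test. In 590 genes (5.51%) the lowest Pre CFU-E array lay above the highest of the 6 flanking arrays, and in 293 (2.74%) the highest lay below the lowest. The first held for all 30 called peaks and the second for all 26 called dips. The calls were made on these same arrays, so their separation was largely fixed by the selection and is no added support. The last peak inside the threshold was Mettl1 (height 0.32, adjusted p = 0.0499) and the first outside was Slc25a1 (0.30, adjusted p = 0.0555). For dips these were Arhgef40 (-0.41, adjusted p = 0.0441) and Bcl2l11 (-0.50, adjusted p = 0.0508). A looser question, whether Pre CFU-E differed from the mean of its flanks, called 2575 genes higher (24.1%) and 1565 lower (14.6%). Most of the higher genes had no called turn, with 1301 early rises and 453 steady rises beside the 30 peaks. An early rise can still lie above both flanks, since its second step was only not called.

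The number of called peaks and dips depended on single arrays. Without WT Pre CFU-E 5 peaks and 6 dips were called, without WT CFU-E 9 and 10, without Het Pre MegE 12 and 13, and without Het CFU-E 8 and 10. Without KO Pre MegE there were 9 peaks and 7 dips, and without KO Pre CFU-E 11 and 6. The peaks numbered 14 without Het Pre CFU-E and 18 without KO CFU-E, where the dips numbered 18 and 26. Called whichever single array was left out were 5 peaks (Il31ra, Kcng2, Mc2r, Pex11a and Smyd5) and 4 dips (Dhrs3, Grap2, Micall2 and Nsmaf). When each step was called on its own, without a joint adjustment, 329 genes (3.07%) peaked and 163 (1.52%) dipped in all 3 genotypes, a rule added after the data were seen. Against the mean of the flanks 1588 genes were higher and 953 lower without WT Pre CFU-E, and 1667 were higher without KO Pre CFU-E. Steady rises numbered 870 without WT Pre CFU-E.

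The peaks are given here by role, a grouping made after their values were seen and not tested. Mc2r, the receptor for the pituitary hormone ACTH, read 8.64, 8.85 and 8.99 at Pre CFU-E in WT, Het and KO, against 7.28, 7.43 and 7.12 at Pre MegE and 6.83, 7.11 and 7.06 at CFU-E. Every Pre CFU-E array lay above every flanking array, by a height of 1.55 (2.92-fold, combined adjusted p = 0.000174). All 6 flanking arrays were below their array medians, so Mc2r entered the test only through Pre CFU-E and had to differ; the same held for Gpx7 and Efr3b among the called peaks. Il31ra, the receptor chain for interleukin 31, read 9.46, 9.67 and 9.35 at Pre CFU-E, 8.44, 8.50 and 8.36 at Pre MegE and 7.93 to 8.07 at CFU-E. Its height of 1.06 (2.09-fold, adjusted p = 0.000174) came with tight stages, none of which overlapped another. Kcng2, a modifying subunit of voltage-gated potassium channels, read 11.22, 11.17 and 11.25 at Pre CFU-E, against 10.23, 10.14 and 10.22 before and 10.52 on each of the 3 CFU-E arrays (height 0.69, adjusted p = 0.000326).

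**Figure D2:**
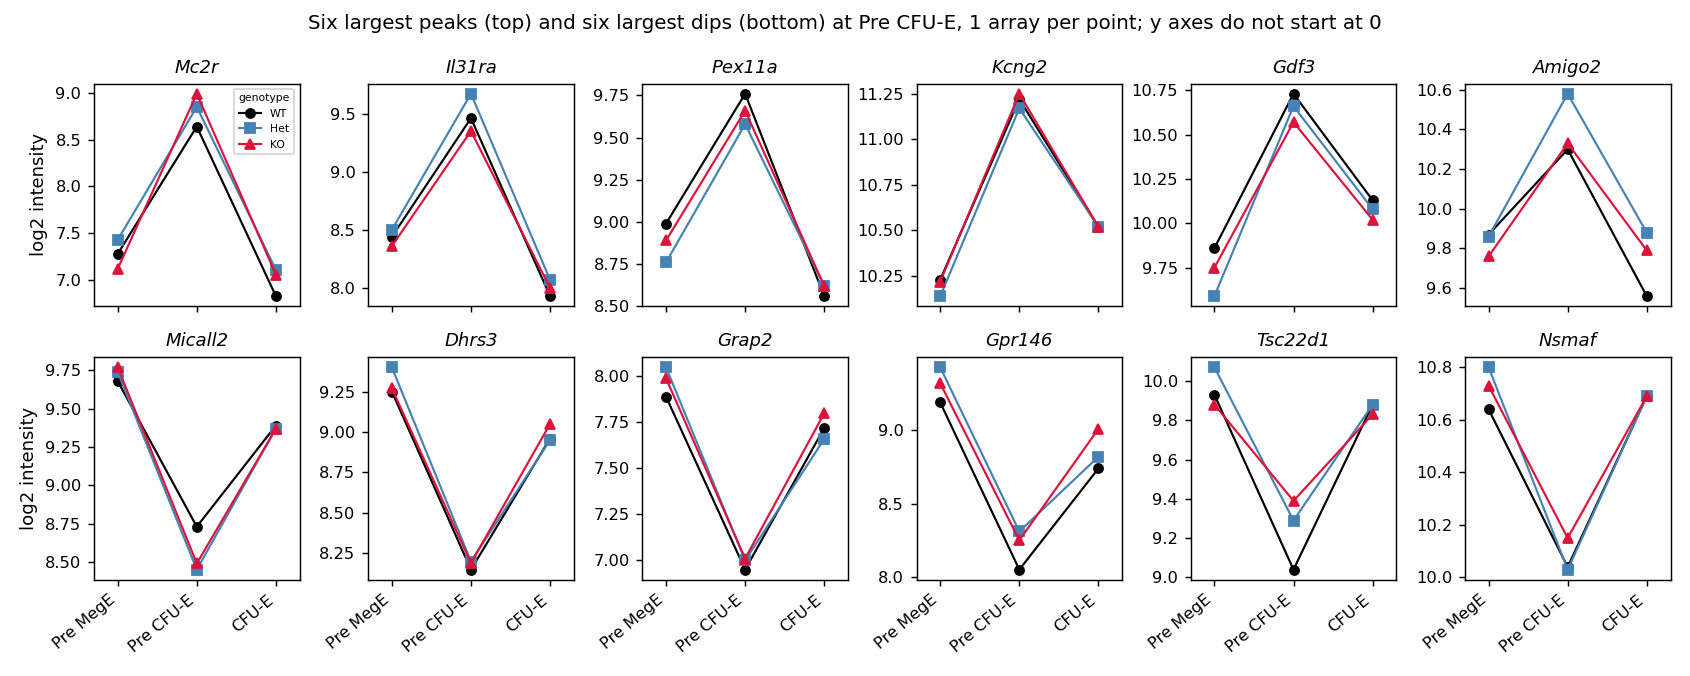
Log2 intensity (vertical axes, each with its own range) of the 6 peaks and the 6 dips with the largest height, by stage (horizontal axes), with 1 line per genotype and 1 array per point. In each gene the WT (black), Het (blue) and KO (red) lines turn at Pre CFU-E, and no Pre CFU-E array overlaps a flanking array.

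Gdf3, a ligand of the TGF-beta family, read 10.73, 10.66 and 10.57 at Pre CFU-E, against 9.86, 9.59 and 9.75 at Pre MegE and 10.13, 10.08 and 10.02 at CFU-E. It kept part of its first gain, with a height of 0.58 (adjusted p = 0.0062). Gja1, a connexin of gap junctions, read 10.37, 10.57 and 10.51 at Pre CFU-E, 9.47, 9.36 and 9.19 before and 9.97 to 9.98 after. Its first step of 1.14 (SE 0.0751) exceeded the drop of 0.51 that followed. The adhesion proteins Amigo2 (height 0.58) and Clstn1 (0.58) and the cannabinoid receptor Cnr2 (0.33) were also called. Clstn1 read 10.08, 10.21 and 10.11 at Pre CFU-E and 9.44 to 9.64 on the 6 flanking arrays, so the levels before and after the peak were close. Plscr1, a lipid scramblase of the plasma membrane, read 12.75, 12.86 and 12.91 at Pre CFU-E and 12.21 to 12.39 on the flanking arrays, and its other probe set moved in the same direction by 0.64 and 0.60.

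Other called peaks act in peroxisomes, mitochondria or redox metabolism. Pex11a, which promotes the division of peroxisomes, read 9.76, 9.58 and 9.66 at Pre CFU-E, against 8.99, 8.76 and 8.89 at Pre MegE and 8.56, 8.62 and 8.62 at CFU-E. It ended below its start, with a height of 0.79 (1.73-fold, adjusted p = 0.00102). Top1mt, the topoisomerase of mitochondrial DNA, read 9.96, 9.99 and 9.97 at Pre CFU-E, against 9.15, 8.94 and 9.17 before and 9.55, 9.39 and 9.47 after (height 0.50, adjusted p = 0.0142). Mrpl50, a protein of the large mitochondrial ribosomal subunit, had 10.90, 10.88 and 10.92 at Pre CFU-E and fell back to 10.42 to 10.45 at CFU-E, still above the 9.82 to 10.02 of Pre MegE. Bcs1l, an assembly factor of respiratory complex III, peaked with a height of 0.30. Ptgr1, a reductase of prostaglandins and leukotrienes (0.56), Sccpdh (0.50), Gpx7, a peroxidase of the endoplasmic reticulum (0.48), and Mmachc, which processes vitamin B12 (0.34), were the others in this group.

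Smyd5, of a family of methyltransferases, read 11.17, 11.16 and 11.18 at Pre CFU-E, against 10.54, 10.39 and 10.50 at Pre MegE and 10.62, 10.54 and 10.67 at CFU-E. The 3 genotypes nearly coincided at Pre CFU-E, far above every flanking array, with a height of 0.56 (1.47-fold, adjusted p = 0.00228). Its relative Smyd2, a lysine methyltransferase, had a height of 0.34 (adjusted p = 0.0468), and Mettl1, which modifies transfer RNA, 0.32. Genes beyond the 15 largest peaks were picked out after their values were seen. Among these were Ext1, an enzyme of heparan sulfate synthesis (0.41), the nucleoside transporter Slc29a2 (0.32), the sialyltransferase St6galnac4 (0.34) and the peptidase Nln (0.38), along with Ydjc, Dcun1d4, Ccdc68, Mexis and Gm10505.

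The dips are likewise grouped by role after the fact, starting with the largest. Micall2, which links Rab proteins to the actin skeleton at cell junctions, read 8.73, 8.45 and 8.49 at Pre CFU-E in WT, Het and KO, against 9.68, 9.74 and 9.77 at Pre MegE and 9.39, 9.37 and 9.37 at CFU-E. No array of Pre CFU-E reached any flanking array, and the height was -0.82 (1.77-fold lower, adjusted p = 0.0027). Dhrs3, which reduces retinaldehyde to retinol, read 8.15, 8.20 and 8.19 at Pre CFU-E, 9.25, 9.40 and 9.27 before and 8.96, 8.95 and 9.05 after (height -0.80, adjusted p = 0.00119). Grap2, the adaptor Gads of immune receptor signalling, fell below its array medians at Pre CFU-E, with 6.95, 7.00 and 7.01 against 7.89, 8.05 and 7.99 before and 7.72, 7.66 and 7.80 after. Nsmaf, a factor that couples a TNF receptor to neutral sphingomyelinase, read 10.04, 10.03 and 10.15 at Pre CFU-E and returned to 10.69 in each genotype at CFU-E from 10.64, 10.80 and 10.73 at Pre MegE. In these 4 genes the level at CFU-E was close to that at Pre MegE or between it and the dip.

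Gpr146, an orphan receptor coupled to G proteins, read 8.05, 8.31 and 8.25 at Pre CFU-E, against 9.19, 9.43 and 9.32 before and 8.74, 8.82 and 9.01 after (height -0.65, adjusted p = 0.00519). Its annotated start lies 328995 bases from that of Micall2 on chromosome 5. Other close pairs of called genes joined a dip with a peak, Grina with Top1mt (589684 bases) and Snx32 with Slc29a2 (476217 bases). Tsc22d1, a leucine zipper protein induced by TGF-beta, read 9.04, 9.29 and 9.39 at Pre CFU-E and 9.83 to 10.07 on the 6 flanking arrays. The kinases Lats2 of the Hippo pathway (height -0.52) and Sgk3 (-0.44) dipped as well. Sgk3 read 9.19, 9.26 and 9.21 at Pre CFU-E, below its 9.65 to 9.67 at Pre MegE and its 9.93 to 9.95 at CFU-E. The protease Capn5 (-0.59), the sorting nexin Snx32 (-0.58), the deubiquitinase Mindy2 (-0.46) and the translational regulator Cpeb4 (-0.46) completed this set.

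Other dips ended at or above their starting level. Tgm2, the tissue transglutaminase, read 8.15, 8.15 and 8.29 at Pre CFU-E, against 8.76, 8.53 and 8.73 at Pre MegE and 9.28, 9.26 and 9.38 at CFU-E. Its gain of 1.11 (SE 0.056) after the dip was larger than the loss of 0.48 before it. Rgcc, a regulator of the cell cycle, read 8.45, 8.32 and 8.30 at Pre CFU-E and then 9.59, 9.62 and 9.36 at CFU-E, from 8.83 to 8.87 at Pre MegE. Flt3l, the ligand of the receptor Flt3, read 8.69, 8.72 and 8.66 at Pre CFU-E, below its 9.10 to 9.26 before and 9.25 to 9.34 after. Among dips picked out after their values were seen, the sialyltransferase St3gal2 read 8.47, 8.62 and 8.54 at Pre CFU-E and 9.60, 9.65 and 9.74 at CFU-E. Grina (height -0.32), Chst14 (-0.36) and Akap7 (-0.40) also had a higher mean at CFU-E than at Pre MegE. Slc25a24, a mitochondrial carrier, Arhgef40, Primpol and Smim6 were the remaining dips outside the lists below.

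Promoters of these genes, 250 bases before to 50 after the annotated start, were searched on both strands for 5 motifs. AGATAA is known to be bound by GATA factors. The E-box, CACGTG, is bound by Myc with Max. The other motifs were CCNCNCCC for the KLF family, CCGGAAGT for ETS factors and TTCNNNGAA for STAT factors. Sequences came from RefSeq with the build GRCm38.p6 and matched 8643 of the 10701 genes. The E-box was in 10.7% of all of these promoters, in 2 of 23 promoters of called peaks (8.7%) and in 2 of 19 of called dips (10.5%). It was in 14.7% of those of genes above both flanks and in 10.7% of those of genes below both. The KLF motif was in 69% of all, 17 of the 23 and 15 of the 19. The GATA motif was in 6.36% of all, 1 of the 23 and 0 of the 19. Shares of the ETS motif were 8.87% of all, 2 of the 23 and 2 of the 19, and of the STAT motif 6.69% of all, 4 of the 23 and 2 of the 19. A match is a description of letters and not a shown binding site. The 250 bases before the start are printed for a large peak, for the largest dip and for a ribosome biogenesis gene described next, 5′ to 3′ on the gene's strand, with motif matches in capitals. Pex11a (chr7:79743132-79743381, minus strand) held 1 ETS match, Micall2 (chr5:139736334-139736583, minus strand) held 4 KLF matches, some of which overlap, and Nop2 (chr6:125131633-125131882, plus strand) held 1 E-box.
Pex11a: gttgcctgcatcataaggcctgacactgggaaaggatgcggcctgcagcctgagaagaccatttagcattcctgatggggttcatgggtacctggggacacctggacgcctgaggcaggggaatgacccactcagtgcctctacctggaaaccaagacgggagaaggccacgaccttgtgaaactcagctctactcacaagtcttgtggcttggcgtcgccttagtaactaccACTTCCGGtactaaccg
Micall2: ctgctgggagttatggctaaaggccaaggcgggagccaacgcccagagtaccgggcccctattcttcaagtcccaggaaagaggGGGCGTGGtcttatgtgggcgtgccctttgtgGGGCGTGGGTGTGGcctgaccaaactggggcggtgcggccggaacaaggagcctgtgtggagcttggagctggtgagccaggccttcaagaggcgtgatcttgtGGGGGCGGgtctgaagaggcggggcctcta
Nop2: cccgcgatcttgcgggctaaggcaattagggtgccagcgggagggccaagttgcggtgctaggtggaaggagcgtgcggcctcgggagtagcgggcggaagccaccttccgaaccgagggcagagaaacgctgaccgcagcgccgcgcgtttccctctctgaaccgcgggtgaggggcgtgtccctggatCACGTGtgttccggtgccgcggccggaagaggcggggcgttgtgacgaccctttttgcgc

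Genes of ribosome biogenesis stood above both flanks more often than any other list with at least 10 tested members, except that on arrays centred at their medians the share, 8 of 32, equalled that of glucocorticoid response, 3 of 12. Of 32 tested members, 11 lay above both flanks in all 3 genotypes (34.4%, against 7.4% of all genes tested) and 0 below. None was a called peak. Against Pre MegE 31 of 32 were called higher (37.1% of all genes tested), with differences from 0.09 to 0.98 and a median of 0.48. Against CFU-E the differences ran from -0.27 to 0.32 with a median of 0.04, and 7 were called higher (25.3% of all) and 2 lower. Thus 22 of the 32 were early rises, and the 7 with both steps called when each step was adjusted on its own, as a peak would have them, were Nop2, Rrp1b, Utp20, Nolc1, Polr1e, Nop16 and Heatr1. After quantile normalization 11 members stood above both flanks in all 3 genotypes.

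**Figure D3:**
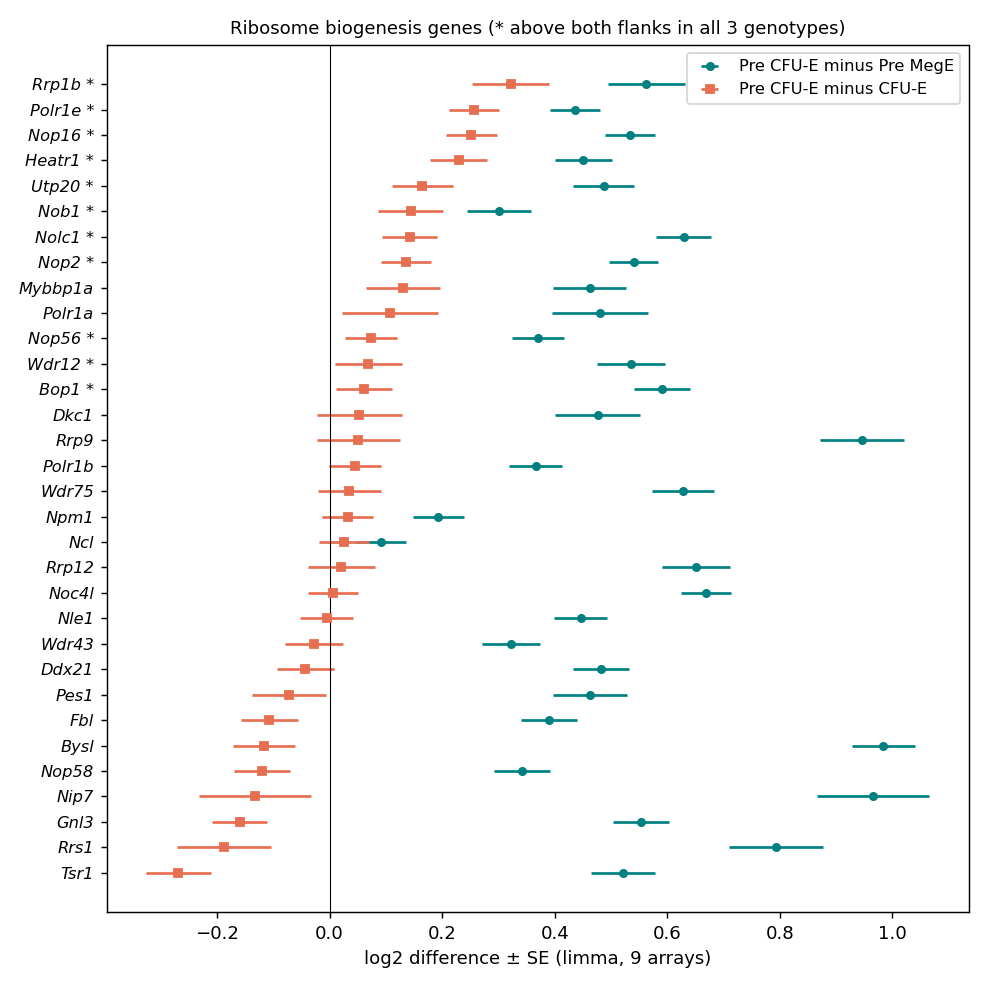
Log2 difference ± SE of Pre CFU-E from Pre MegE (circles) and from CFU-E (squares) for the 32 tested ribosome biogenesis genes, from the limma fit over 9 arrays and ordered by the second difference. All circles lie to the right of 0, between 0.09 and 0.98, while the squares spread around 0, between -0.27 and 0.32.

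Rrp1b, a nucleolar protein, had the largest excess. It read 11.13, 11.01 and 10.94 at Pre CFU-E, against 10.65, 10.32 and 10.43 at Pre MegE and 10.70, 10.66 and 10.76 at CFU-E, with no overlap and a height of 0.32 (adjusted p = 0.135 for a peak). Polr1e, a subunit of RNA polymerase I, read 10.83, 10.81 and 10.82 at Pre CFU-E, 10.34, 10.41 and 10.40 before and 10.56 on each CFU-E array. Its differences of 0.44 (SE 0.0447) and 0.26 (SE 0.0447) were each called, while the combined test missed the threshold (adjusted p = 0.0669). Nop2, a methyltransferase of ribosomal RNA, read 11.94, 11.91 and 11.95 at Pre CFU-E, against 11.44, 11.33 and 11.41 before and 11.83, 11.76 and 11.80 after. Rrp9 had a large first step with no turn, from 10.32, 10.57 and 10.43 to 11.32, 11.36 and 11.47, and then 11.40, 11.36 and 11.23. The E-box was in 7 of 27 promoters of the list (25.9%, against 10.7% of all) and in 2 of the 10 of its members above both flanks.

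Myc lay above both flanks at Pre CFU-E by a small amount. It read 13.20, 13.21 and 13.22 at Pre CFU-E, against 13.02, 13.10 and 13.09 at Pre MegE and 12.75, 12.79 and 12.76 at CFU-E. All Pre CFU-E arrays were above all flanking arrays, with differences of 0.14 (adjusted p = 0.0199) and 0.44 (adjusted p = 4.4e-05), and the combined test did not pass (adjusted p = 0.547). Of the 10 tested genes of Myc and its partners, 3 lay below both flanks in all 3 genotypes (30%, against 4.14% of all genes tested). These were Mxd1, Mxd3 and Mxi1, which compete with Myc for its partner Max. Of the same list, the early falls Mxd4 and Mnt and the steady fall Mga did not lie below both flanks. Mxd1 read 9.56, 9.66 and 9.52 at Pre CFU-E and 10.19 to 10.47 before, but 9.71 to 9.73 after, so it was an early fall. Mxd3 and Mxi1 lay below Pre MegE by 0.11 each, which was not called (adjusted p = 0.0834 and 0.0862). With array medians centred 1 member lay below both flanks, and 2 did with quantile normalization.

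Lists of nucleotide, sugar and mitochondrial metabolism had like shares above both flanks, where 7.4% of all genes tested lay. In purine and pyrimidine synthesis 5 of 20 did (25%), namely Gart, Atic, Adss, Prps2 and Shmt1, and 11 of the 20 were early rises. Of the 5 above both flanks, 0 had both steps called. The count above both flanks was 4 with array medians centred and 2 with quantile normalization. Atic, which completes the making of inosine monophosphate, read 12.62, 12.70 and 12.63 at Pre CFU-E, 12.38, 12.20 and 12.35 before and 12.53, 12.51 and 12.57 after. Shmt1, a serine hydroxymethyltransferase, held at 10.13 to 10.29 over the first 2 stages and then read 9.31, 9.22 and 9.25. In glycolysis 5 of 17 lay above both flanks (29.4%), Aldoa, Ldha, Pgk1, Pfkp and Tpi1, of which Aldoa and Ldha had both steps called. Ldha, which makes lactate, read 13.46, 13.45 and 13.52 at Pre CFU-E and 13.26 to 13.35 on the flanking arrays, a difference of 0.15 and 0.17. The red cell pyruvate kinase Pklr, in contrast, was a steady rise and Pkm a steady fall.

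In mitochondrial biogenesis and import 5 of 22 lay above both flanks (22.7%, against 7.4% of all genes tested), Polrmt, Ppargc1b, Pprc1, Mrps18b and Tomm40. Early rises were 14 of the 22. Polrmt, the RNA polymerase of mitochondria, read 10.47, 10.48 and 10.49 at Pre CFU-E, against 10.13, 10.23 and 10.19 before and 10.33, 10.36 and 10.36 after. Both of its steps were called, at 0.30 and 0.13, and so were those of the coactivator Ppargc1b, at 0.35 and 0.21. Medians of the difference from the mean of the flanks were 0.30 for ribosome biogenesis, 0.23 each for nucleotide synthesis and mitochondria, and 0.12 for glycolysis, beside 0.03 over all genes tested. Transfer RNA synthetases had a median of 0.24, and 1 of 18 lay above both flanks, Wars, or 3 with quantile normalization, with 8 steady and 9 early rises. G2 and M phase genes had a median of 0.22 and also 1 of 26, Aurkb, while DNA replication genes were steady rises in 23 of 30.

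**Figure D4:**
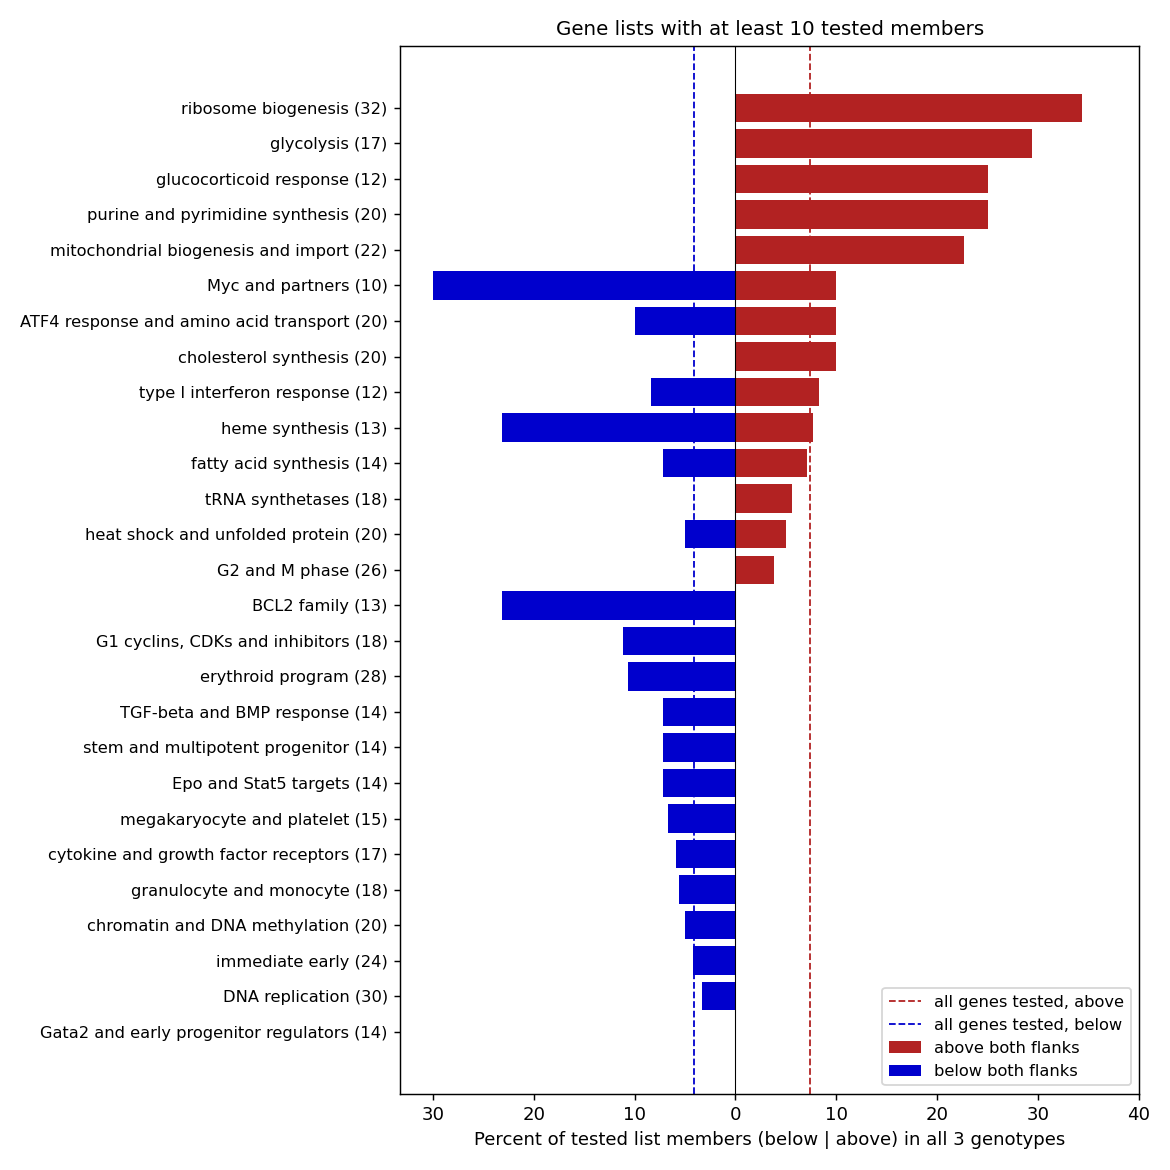
Percent of tested members of each gene list with at least 10 of them (count in brackets) that lay above (red, to the right) or below (blue, to the left) both flanking stages in all 3 genotypes. Dashed lines mark the 7.4% and 4.14% of all genes tested, and ribosome biogenesis reaches 34.4% above while Myc and partners reach 30% below (3 of 10, or 1 with array medians centred).

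Of 12 tested glucocorticoid response genes, 8 were steady falls, and 3 lay above both flanks in all 3 genotypes (25%, against 7.4% of all genes tested). These were Fkbp5, Klf9 and the receptor gene Nr3c1, and the count was 2 with quantile normalization. Fkbp5, a chaperone of the receptor, read 10.61, 10.60 and 10.61 at Pre CFU-E, 10.50, 10.34 and 10.46 before and 9.84, 9.82 and 9.87 after. Klf9 read 10.78, 10.72 and 10.72 at Pre CFU-E, 10.61, 10.28 and 10.34 before and 10.23, 10.18 and 10.33 after. Both steps were called in both genes, with combined adjusted p-values of 0.392 and 0.141. In the list of ATF4 targets and amino acid transporters 2 of 20 lay above both flanks (10%, against 7.4% of all genes tested), the serine synthesis enzymes Psat1 and Phgdh. Another 2 lay below (10%, against 4.14%), and with so few members neither share stands out. The latter were Ddit3 and the glutamine carrier Slc1a5, which read 9.10, 9.11 and 9.12 at Pre CFU-E against 9.35 to 9.49 before and 9.58 to 9.68 after (combined adjusted p = 0.0542).

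Of 28 tested erythroid genes 13 were steady rises and 6 early rises, among them Klf1, Gata1 and Epor. The list also held the steady fall Nfe2 and the early falls Zfpm1 and Ldb1. The 3 below both flanks in all 3 genotypes (10.7%, against 4.14% of all genes tested) were Sox6, Slc4a1 and Tmod1. Sox6, a repressor of embryonic globin genes, was a called dip, with 7.90, 7.84 and 7.93 at Pre CFU-E, 8.35, 8.35 and 8.38 before and 8.27, 8.37 and 8.28 after (height -0.42, adjusted p = 0.0151). Slc4a1, the anion exchanger band 3, read 8.16, 8.14 and 8.22 at Pre CFU-E, against 8.57, 8.26 and 8.57 before and 9.05, 9.20 and 9.23 after (combined adjusted p = 0.563). Tmod1 was not called at either step, and its probe sets disagreed, with differences from Pre MegE of -0.13 and -0.76.

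Of 13 tested genes of heme synthesis 9 were steady rises, such as Cpox, which went from 9.64 to 9.91 at Pre MegE to 11.52 to 11.62 and then 12.05 to 12.21. The 3 below both flanks (23.1%, against 4.14% of all genes tested) were Alas2, Ppox and Abcb10, and the mitochondrial carrier Slc25a39 lay above both. Abcb10 was a late rise whose first step was not called (adjusted p = 0.208). Alas2, the rate-limiting enzyme of the red cell pathway, read 7.62, 7.68 and 7.63 at Pre CFU-E, against 7.87, 7.86 and 7.89 before and 8.22, 7.97 and 8.07 after. Its differences of -0.23 (SE 0.0631, adjusted p = 0.00935) and -0.44 (adjusted p = 0.000429) were each called, and its signal was near the array medians. Ppox read 9.46, 9.37 and 9.39 at Pre CFU-E, below 9.58 to 9.66 before and 10.31 to 10.47 after. With array medians centred 2 heme genes lay below both flanks.

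A few genes of the BCL2 family and of the G1 phase lay below both flanks. In the BCL2 family these were 3 of 13 (23.1%, against 4.14% of all genes tested), and the count was 3 under both other scalings. They were the death inhibitors Bcl2l1 and Mcl1 and the death inducer Bcl2l11. Bcl2l1, which encodes Bcl-xL, read 7.61, 7.70 and 7.61 at Pre CFU-E, 8.20, 8.22 and 8.35 before and 7.91, 7.92 and 7.92 after. Both of its differences were called, at -0.62 and -0.28, with a combined adjusted p of 0.163. Bcl2l11, which encodes Bim, read 9.21, 9.28 and 9.20 at Pre CFU-E, 9.95, 9.65 and 9.61 before and 9.91, 9.91 and 9.97 after. In the G1 list 2 of 18 lay below both (11.1%, against 4.14% of all genes tested), E2f2 and Ccnd3. With so few members this share does not stand out, and E2f2 was a late rise whose first step was not called (adjusted p = 0.241). Ccnd3, whose cyclin D3 is known to set the number of divisions of late red cell precursors, was a called dip at 10.94, 10.69 and 10.89, against 11.56, 11.33 and 11.39 before and 11.29, 11.26 and 11.27 after (height -0.43, adjusted p = 0.0232). Ifit2 was the called dip of the interferon list (height -0.33, adjusted p = 0.0384).

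Of 18 tested granulocyte and monocyte genes 10 were early falls and 7 steady falls, and 1, Ms4a3, lay below both flanks, or 2 under either other scaling. Their summed intensity, in linear units over 22 genes, was 51612 to 59748 at Pre MegE, 28714 to 34869 at Pre CFU-E and 24606 to 30941 at CFU-E. Megakaryocyte and platelet genes went from 20689 to 21685 over 6612 to 6902 to 3767 to 4011, with 10 steady and 4 early falls of 15. The 8 tested B cell genes were 6 early and 2 steady falls. Among 5 tested eosinophil genes 2 lay below both flanks, Prg3 and Ear6 (4.14% of all genes tested did), too few members for a share to stand out. Of 16 named DC and macrophage genes 6 passed the filter, and of T and NK cell genes 3 passed and 9 did not. Arrays give no true zero, fewer cells of a type and less RNA per cell cannot be told apart in sorted bulk samples, and the part of these markers in the peaks and dips was not tested. The Y-linked genes Uty and Eif2s3y read 9.40 to 10.81 on all 9 progenitor arrays. The 4 tested sex-linked genes, which also include Xist and Kdm5d, differed more between genotypes as a sum. Their summed intensity ran from 3683 to 8066 at Pre MegE, 3168 to 6116 at Pre CFU-E and 3070 to 5460 at CFU-E. A difference in sex between the genotypes was not tested.

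The median height of the 30 peaks was 0.41 in WT, 0.42 in Het and 0.46 in KO, and that of the 26 dips was -0.45, -0.44 and -0.45. These heights chose the members in part, so their common sign is no test. A term for the number of gfp alleles in the difference from the mean of the flanks called 0 of 10701 genes (0%) in limma, with 148 at an unadjusted p under 0.05 and a smallest adjusted p of 0.999. This fit left 2 residual degrees of freedom. Among the called genes, the difference from the mean of the flanks was 1.58, 1.58 and 1.90 for Mc2r in WT, Het and KO, a slope of 0.16 per allele (SE 0.064). For Gja1 it was 0.64, 0.90 and 0.93, a slope of 0.14 (SE 0.059). The dip of Tsc22d1 was -0.87, -0.69 and -0.46 in WT, Het and KO. These 3 genes had an unadjusted p under 0.05, and none passed the adjustment.

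**Figure D5:**
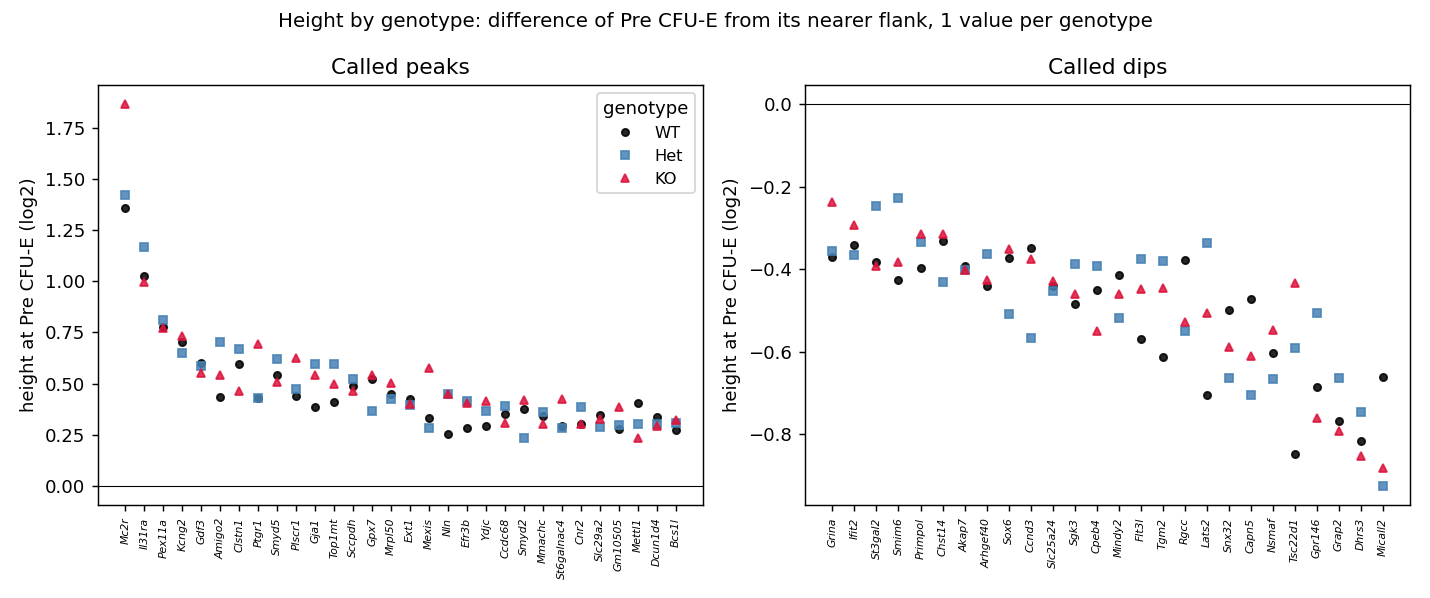
Height at Pre CFU-E, the difference from the nearer flanking stage in log2 units (vertical axes), for each of the 30 called peaks (left) and 26 called dips (right), with 1 value each for WT (circles), Het (squares) and KO (triangles). Peak heights run from 0.23 to 1.87 and dips from -0.23 to -0.93, and the order of the genotypes changes from gene to gene.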

How the data were processed

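Total RNA of sorted cells was labelled with biotin and hybridised to single-colour Affymetrix arrays. The deposited table gives each probe set an intensity per array. Per the submitters' processing notes the authors used RMA, whose version and later steps were not given in the sources used here. All values were positive and many lay far above the range of log2 data, so they were read as linear. The log2 of each deposited intensity was used with no further scaling. The annotation paired 21780 of 29674 probe sets with a single symbol, 1618 with several and 6276 with none. This named 19933 genes, and the brightest probe set over 11 arrays stood for each of 996 genes that had more than 1. Genes at or above the array median on at least 2 of the 9 progenitor arrays were tested, 10701 in all.

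Stages were compared in limma 3.58.1 (R 4.3.3; lmFit, contrasts.fit, eBayes, two-sided, Benjamini-Hochberg over all genes tested) with stage and genotype as additive terms and 4 residual degrees of freedom. Peaks and dips needed both differences from Pre CFU-E in 1 direction, and the larger of both p-values was adjusted. On simulated data with 10701 genes, 23.9% of peaks and dips of 0.25, 77.6% of those of 0.5 and 100% of those of 1 were called, with 0 of 2961 unchanged genes. The unchanged genes were flat at both steps, where a call is least likely, and false calls among genes with a single real step were not counted. Noise was drawn separately for each array, so the simulation held no error common to the Pre CFU-E arrays. The number of arrays limits the precision. Named were Zbtb46, the 15 largest called peaks and dips of genes with a regular symbol, up to 4 called or otherwise 2 leading members of each of 35 gene lists, the gate genes and the 3 genes with the smallest p for the allele term, and other genes named were chosen after their values were seen. The members and lists were chosen with earlier results of these data known. The lists were described by counts, with no set test. Other scalings, filters, probe set rules, weights, priors, a fit with no genotype term and fits without each array or genotype were tried.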

Additional observations from a re-analysis of the deposited data

Results flagged for a closer look

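In 8 of the 15 largest dips the CD4+ DC, which the stage comparison did not use, gave a signal above every progenitor array. Tgm2 stood 2.77 above on the log2 scale, taking the lower DC array against the highest progenitor array, and read 12.15 in WT and 12.53 in KO DC. Dhrs3 stood 1.47 above and Lats2 1.19. Tsc22d1 stood 0.98 above and Grap2 0.89. Cpeb4 and Sgk3 each stood 0.85 above, and Nsmaf stood 0.59 above. Over all 26 called dips, 9 had both DC arrays above all progenitor arrays and 12 had both below. For all genes tested these shares were 14.3% and 62.5%, and of the 30 called peaks 0 lay above and 23 below. Among all 443 genes below both flanks, 88 had both DC arrays above all progenitor arrays and 228 had both below. The median signal over the progenitor arrays was 8.87 for called dips and 9.74 for all genes tested. With 1 DC array per genotype these are values with no test.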

How the results depend on the processing

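The 15 largest peaks, the 15 largest dips and the called dips Sox6, Ccnd3 and Ifit2 kept their direction in every alternative tried, and 453 of their 657 alternatives also kept the call. Where a gene no longer turned, its direction was that of the difference from the mean of the flanks. A kept direction is therefore not always a kept peak or dip. With array medians centred 23 peaks and 22 dips were called, and these held 14 of the 30 peaks and 19 of the 26 dips. Quantile normalization gave 23 peaks and 29 dips, which held 19 of the 30 and 22 of the 26. The 30 peaks became 12 with no filter on low values, 172 with array weights, whose estimation did not converge, 51 with no genotype term, and 329 with each flank called apart. They became 4, 5 and 8 without all WT, all Het or all KO arrays, and 5 to 27 with a single array left out. The 26 dips became 12, 59 and 163 with no filter, array weights and each flank apart, 1, 3 and 4 without a genotype, and 6 to 26 with a single array left out. Against the mean of the flanks, a left-out array gave 1588 to 2679 genes higher and 953 to 1599 lower, and leaving out all WT arrays 1548 and 925. Steady rises numbered 2182 with array weights, 781 without all WT, 816 without all Het arrays and 870 to 1666 with an array left out. Array weights gave 1281 early rises, 711 early falls, 904 late rises and 922 late falls. Il31ra, Kcng2 and Pex11a were called peaks in every alternative, and 0 dips were. The genotype term of the fit already compares stages within each genotype, and the labels give no replicate numbers for any other pairing. With 9 arrays and 4 residual degrees of freedom, turns of 0.25 were mostly below what the test could call.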
